A study of Mus musculus with 6 samples.

Results

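Pluripotent stem cells that the study induced with recombinant proteins (piPSC) were compared with the mouse fibroblasts OG2-MEF on 4 of the 6 Illumina bead arrays of the series. The comparison was chosen by array title, 2 arrays of piPSC against 2 of OG2-MEF, and covered all 25697 probes of the deposited intensity table. After a filter on dim probes, 9700 named genes were tested. The question was which functions were gained and lost besides the core pluripotency and fibroblast genes.

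The piPSC arrays carried the label of protein-induced pluripotent stem cells. The labels name neither the proteins nor the starting cells of the piPSC lines, and give no clone, passage or sex. OG2-MEF were fibroblasts of 13.5-day embryos whose transgene places green fluorescent protein under the promoter of Oct4, a marker of germ cells and pluripotent cells. They grew on gelatin in medium with 10% serum. The culture protocol attached to the piPSC arrays is worded for ES cells, on irradiated fibroblast feeders with 10% serum and 1000 units per ml of leukemia inhibitory factor (LIF), so medium, LIF and feeders differed between the groups along with cell state. The titles of the arrays speak of biological replicates without naming separate cultures. The p-values therefore measure the spread between these samples, which may be technical.

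Fibroblasts secrete and bind extracellular matrix, pull on it through actin stress fibres and respond to growth factors of their tissue. Mouse pluripotent cells grow as compact epithelial colonies, cycle with a short G1 phase, keep many germ line genes active and are known for low levels of position-specific developmental regulators. Genes beyond the textbook markers were compared by function at the level of RNA, where cell state and culture cannot be told apart.

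The 2 arrays of a group were close to each other. Over the tested genes, the SD of their log2 difference was 0.206 for piPSC and 0.190 for OG2-MEF, and Pearson's r was 0.996 and 0.997 (across genes, which are not independent replicates). Total raw intensity was 15851013 and 15690377 on the piPSC arrays, against 19393092 and 19598206 on the OG2-MEF arrays. On each array, 51.2% to 52.4% of probes exceeded background. With 2 arrays per group, the number of arrays limits the precision. In bulk samples such as these, fewer cells of a type and less RNA per cell cannot be told apart.

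The labels were checked against marker lists. All 24 tested pluripotency markers were higher in piPSC, and 23 of 25 fibroblast markers were lower. Over all tested genes, 21.2% were higher and 22.6% lower. Of the 24, 16 were read from probes that passed the filter through piPSC alone, which favours a higher call. Pou5f1, which encodes Oct4, lay at log2 intensities of 13.92 and 13.95 in piPSC, against 4.45 and 4.55 in OG2-MEF, where its probe was not well above background; another probe of the gene was. The dim probe was at least 448-fold higher in piPSC. Without piPSC replicate 1 the gene was read from the other probe, with a log2 fold change of 8.21. The mean log2 level of the fibroblast list was 9.92 and 10.0 on the piPSC arrays, against 11.7 and 11.8 on the OG2-MEF arrays. The exceptions in that list were 2 small leucine-rich proteoglycans of the matrix. Dcn (decorin) lay at 12.91 and 12.76 in piPSC, against 9.48 and 9.43 in OG2-MEF, and Lum (lumican) at 9.03 and 9.04 in piPSC, against 7.41 and 7.12 in OG2-MEF. Their log2 fold changes were 3.38 and 1.77. Feeder cells are fibroblasts, and their part in the fibroblast signal of piPSC was not tested.

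Of the 9700 genes, 4246 changed (43.8%), 2056 of them higher (21.2%) and 2190 lower (22.6%) in piPSC. Changed means at least 2-fold with a Benjamini-Hochberg adjusted p from limma under 0.05. All 4246 genes past 2-fold also passed the p-value, so the fold set the call. The higher genes made up 48.4% of the changed genes. Under median scaling between arrays, 1570 were higher and 2705 lower, and the higher share was 36.7%. With undetected genes at their lower bounds, 142 genes were at least 16-fold higher and 58 at least 16-fold lower, and 37 and 5 passed 64-fold. In the 6 function lists below with 0 lower genes, 0 to 4 members each were lower at an unadjusted p under 0.05 by limma, whatever the fold. A gene was above background on both arrays of 1 group and on neither of the other in 789 cases for piPSC (8.13%) and in 614 for OG2-MEF (6.33%). Such genes passed the filter through 1 group alone, which favours a call towards that group.

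**Figure D1:**
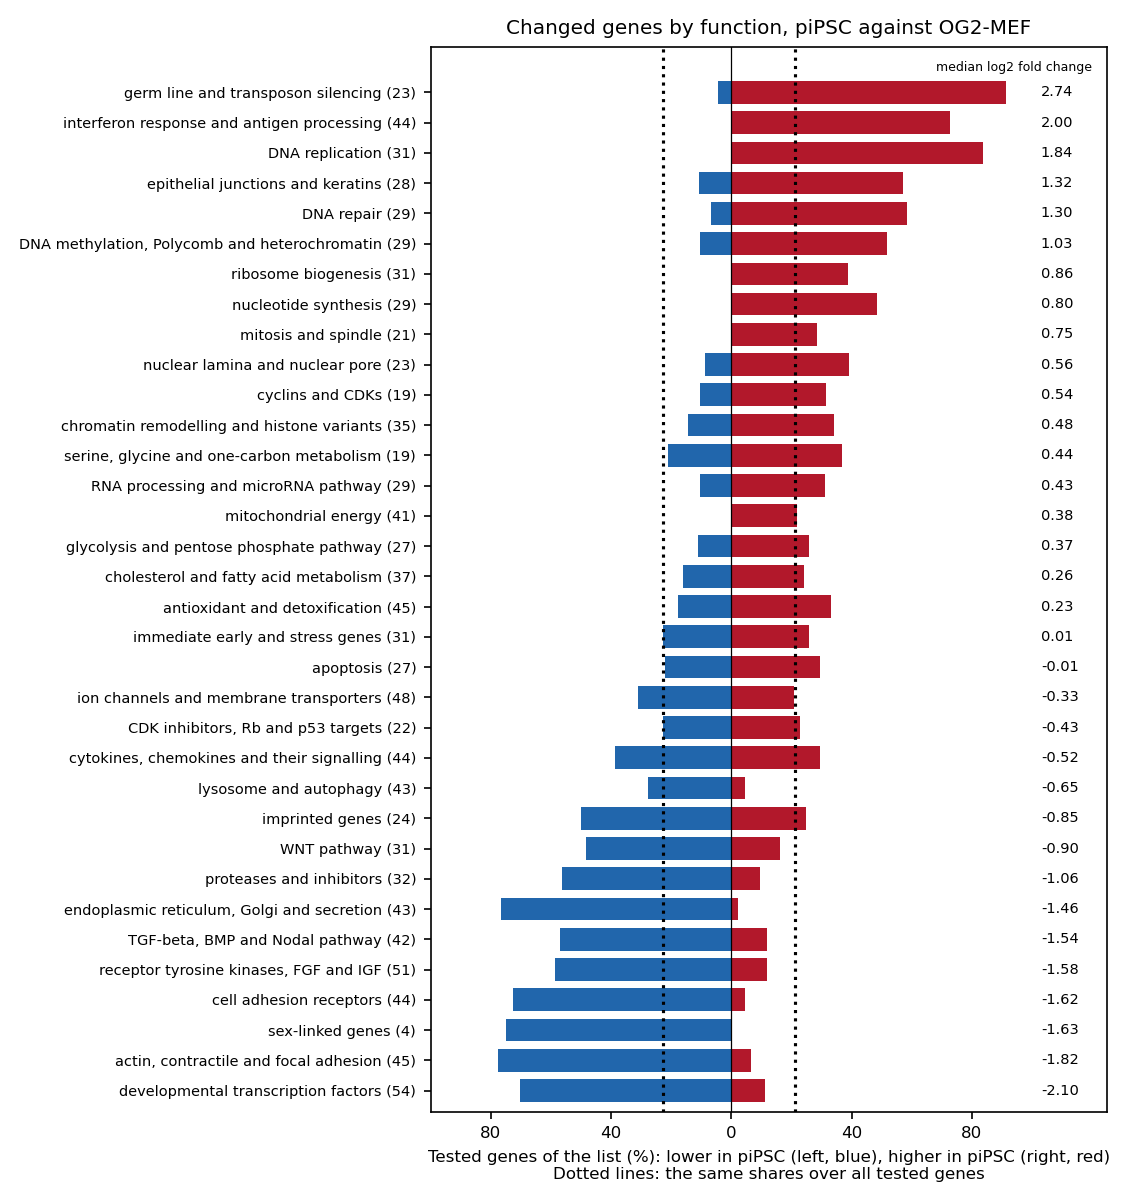
Each bar pair shows the percentage of tested genes of a function list that were lower (left, blue) and higher (right, red) in piPSC than in OG2-MEF; the number tested stands in parentheses, the median log2 fold change at the right, and dotted lines mark 22.6% and 21.2% over all genes. Lists are ordered by their median: germ line, interferon and DNA replication genes have the highest, and developmental transcription factors (-2.10) and actin genes (-1.82) the lowest.

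The genes with the largest gains outside the marker lists came from several functions. Rhox5, a reproductive homeobox gene of the X chromosome, lay at log2 intensities of 13.81 and 13.83 in piPSC, against 4.98 and 5.05 in OG2-MEF, where it was not well above background, so it was at least 415-fold higher (adjusted p = 9.5e-11). In such bounds the dimmer group stands at its own signal or at the lowest signal detected on the array, whichever is higher. Wfdc2, a secreted protein with protease inhibitor domains, lay at 13.48 and 13.46 in piPSC, against 4.79 and 4.73 in OG2-MEF (at least 326-fold). A further probe of Wfdc2 moved by 5.95 on the log2 scale, in the same direction. Trh, the precursor of thyrotropin-releasing hormone, lay at 12.42 and 12.21 in piPSC, against 4.52 and 4.44 in OG2-MEF (at least 146-fold). Lcn2, a secreted lipocalin that binds bacterial iron carriers, lay at 11.96 and 11.99 in piPSC, against 4.38 and 4.36 in OG2-MEF (at least 116-fold). For each of these genes the OG2-MEF arrays were not well above background. They passed the filter through piPSC alone and were picked by size of change, so the gap between the groups follows from the choice. Pla2g1b (a secreted phospholipase), Rbmxl2 (a testis RNA-binding protein), Lrrc34 and 2210409E12Rik were at least 98.8-fold, 102-fold, 91.3-fold and 99.1-fold higher in piPSC. Ooep, a protein of the oocyte cortex, was above background in both groups, at 12.88 and 12.81 in piPSC, against 5.64 and 5.63 in OG2-MEF, which is 148-fold.

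The 12 largest losses outside the marker lists also came from several functions. Gjb2, which encodes the gap junction protein connexin 26, lay at 5.51 and 5.12 in piPSC, against 12.20 and 12.15 in OG2-MEF (log2 fold change -6.86, SE 0.14, adjusted p = 7.3e-10). Its other probes moved by -5.95 and -3.59. Sema3a, a secreted guidance cue that repels axons, lay at 4.81 and 4.78 in piPSC, against 10.83 and 10.58 in OG2-MEF, and was at least 49.4-fold brighter in OG2-MEF. Eln, the precursor of elastin, lay at 4.87 and 4.61 in piPSC, against 10.02 and 9.79 in OG2-MEF (at least 28.5-fold). Neither gene was well above background on a piPSC array. Megf10, an engulfment receptor, was at least 30.2-fold brighter in OG2-MEF, while C1qtnf3, a secreted protein related to complement C1q, and Moxd1, a copper monooxygenase, had log2 fold changes of -5.19 and -4.98.

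**Figure D2:**
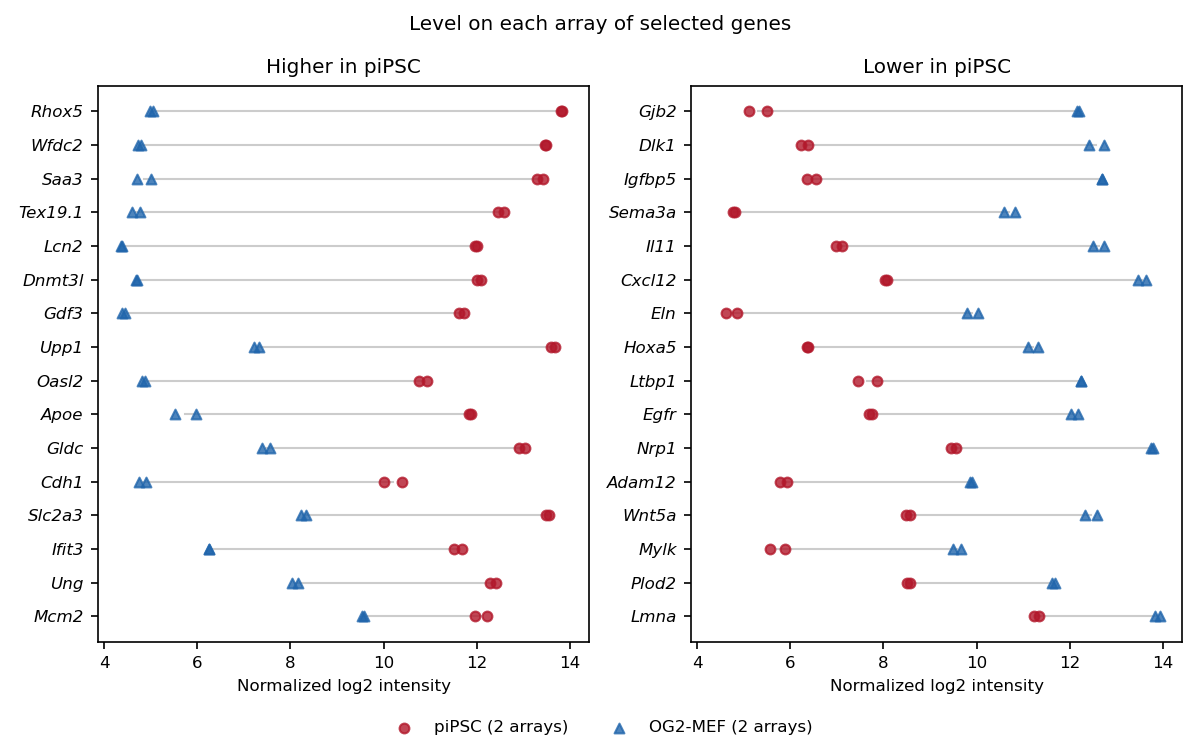
Normalized log2 intensity on each array is plotted for 16 genes higher and 16 genes lower in piPSC, with piPSC as circles and OG2-MEF as triangles, and a grey line joining the group means. The genes were picked from those that changed, so the gap between the groups follows from that choice.

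Most genes of DNA replication were higher in piPSC. Of 31 tested, 26 were higher in piPSC and 0 lower, with a median log2 fold change of 1.84, against 0.003 over all genes. Mcm2, a subunit of the replicative helicase, lay at 11.95 and 12.22 in piPSC, against 9.54 and 9.57 in OG2-MEF (log2 fold change 2.53, SE 0.12, adjusted p = 9.7e-08). Of the helicase subunits Mcm2 to Mcm7, 5 of 6 were higher, and the remaining one, Mcm4, was at 0.94, under 2-fold (1.01 without piPSC replicate 1 or OG2-MEF replicate 2). Mcm10, which helps assemble the replication fork, lay at 12.36 and 12.41 in piPSC, against 9.44 and 9.66 in OG2-MEF. Rpa2, a subunit of the single-strand binding protein, and Rfc5, a subunit of the clamp loader, had log2 fold changes of 2.66 and 2.52. Letters of the E2F site, TTTGGCGC or TTTCGCGC on either strand, were found in the 250 bases before the start of 2 of 21 higher replication genes with a promoter in the table (9.52%), against 1.28% of all tested genes.

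Cell cycle regulators moved less uniformly than replication genes. Of 19 cyclins, CDKs and their transcription factors, 6 were higher and 2 lower. Mybl2, a transcription factor of the S and G2 phases, lay at 12.41 and 12.45 in piPSC, against 8.25 and 8.64 in OG2-MEF (log2 fold change 3.99, SE 0.14). Ccnd2, a D-type cyclin of G1, had a log2 fold change of -2.89 (SE 0.13). Mitotic genes shifted by a median of 0.75, with 6 of 21 higher and 0 lower, or 3 higher and 1 lower under median scaling. Their higher share was 28.6%, against 21.2% over all genes. The spindle checkpoint kinase Bub1b was among the higher ones, at 2.14. Of 22 CDK inhibitors and p53 targets, 5 rose and 5 fell (22.7% each, near the 21.2% and 22.6% over all genes). Cdkn1c, Cdkn2b and Cdkn1a, which each encode a CDK inhibitor, had log2 fold changes of -2.44, -2.15 and -1.63. Gadd45a, a stress-induced growth arrest gene, lay at 11.61 and 11.66 in piPSC, against 9.15 and 8.96 in OG2-MEF (2.58, SE 0.12). Cdkn2a was 3.02-fold higher, but its other probe moved by only 0.41 on the log2 scale.

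DNA repair genes were higher in 17 of 29 cases and lower in 2, with a median of 1.30. Ung, the uracil glycosylase that starts base excision repair, lay at 12.29 and 12.41 in piPSC, against 8.03 and 8.17 in OG2-MEF (log2 fold change 4.25, SE 0.11). Its other probes rose by 1.22 and 3.03 on the log2 scale. Apex1, the endonuclease of the next step of that pathway, lay at 13.62 and 13.41 in piPSC, against 10.18 and 10.07 in OG2-MEF (10.5-fold). Msh6, of mismatch recognition, was 9.97-fold higher and the checkpoint kinase Chek2 11.6-fold higher. Both exceptions were translesion polymerases: Polh had a log2 fold change of -1.80 and Polk of -1.10.

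Among chromatin regulators, gains were frequent, and some related genes moved in opposite directions. In the list of DNA methylation, Polycomb and heterochromatin genes, 15 of 29 were higher and 3 lower. Dnmt3l, a cofactor of the de novo DNA methyltransferases, lay at 12.01 and 12.09 in piPSC, against 4.72 and 4.69 in OG2-MEF, and was at least 122-fold higher. Dnmt3b, one of those methyltransferases, lay at 12.87 and 12.97 in piPSC, against 7.60 and 7.75 in OG2-MEF (37.9-fold). Among the chromodomain proteins of Polycomb repressive complex 1, Cbx7 lay at 9.55 and 9.72 in piPSC and was not well above background in OG2-MEF, so it was at least 22.8-fold higher. Cbx8 moved the other way, with 5.23 and 5.24 in piPSC, against 7.33 and 7.45 in OG2-MEF. The methyltransferase Ezh2 and its partners Eed and Suz12, of Polycomb complex 2, had log2 fold changes of 2.53, 2.56 and 1.66. Of 35 remodelling and histone genes, 12 rose and 5 fell, among them Arid3b (3.89), the histone chaperone Nasp (2.49) and the class IIa deacetylase Hdac7 (-2.63). In the nuclear envelope, 9 of 23 genes were higher and 2 lower (5 and 2 under median scaling). Nup210, a membrane nucleoporin, lay at 10.68 and 10.91 in piPSC, against 4.63 and 4.75 in OG2-MEF, at least 51.0-fold higher. Lmna, the A-type lamin, and Sun2, which ties the envelope to the cytoskeleton, were the 2 lower genes, at -2.60 each.

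Germ line and transposon-silencing genes had the highest median of the 34 function lists. Of 23 tested, 21 were higher and 1 was lower, and the median log2 fold change was 2.74 (2.63 with undetected genes placed at their bounds). In OG2-MEF, 17 of the 23 were not well above background on either array. Those 17 passed the filter through piPSC alone, so the count and median of this list partly follow from the filter. Tex19.1, which restrains transposons in germ cells, lay at 12.45 and 12.59 in piPSC, against 4.77 and 4.60 in OG2-MEF (at least 168-fold). Dazl, an RNA-binding translation factor of germ cells, lay at 10.62 and 10.56 in piPSC, against 4.50 and 4.51 in OG2-MEF (at least 44.2-fold). Both genes were among the 17 that passed the filter through piPSC alone. Tdrd12 and Piwil2, of the piRNA pathway, were at least 21.3-fold and 6.21-fold higher, and the meiotic cohesin Rec8 at least 9.08-fold. The lower gene was Tdrd7, another Tudor-domain protein, at -1.06 (-0.97, under 2-fold, without OG2-MEF replicate 2). A further 9 listed genes on the array, among them Ddx4, Sycp1 and Sycp3, were not above background on both arrays of either group.

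Interferon-stimulated genes were higher in piPSC. Of 44 tested, 32 were higher and 0 lower, with a median of 2.00 (1.73 with undetected genes at their bounds), and 15 were not well above background in OG2-MEF. Those 15 passed the filter through piPSC alone, which favours a higher call. Oasl2, of the oligoadenylate synthetase family, lay at 10.94 and 10.76 in piPSC, against 4.87 and 4.81 in OG2-MEF (at least 52.9-fold). Ifit3, which takes part in antiviral signalling, lay at 11.69 and 11.52 in piPSC, against 6.26 on each OG2-MEF array (log2 fold change 5.34, SE 0.11, adjusted p = 8.2e-10). Usp18, a protease that strips the ubiquitin-like Isg15 off proteins, had a log2 fold change of 5.20. Isg15 itself was 26.0-fold higher and lay at 10.96 and 11.07 in piPSC, against 6.55 and 6.08 in OG2-MEF. Ifitm1, a membrane protein that blocks viral entry and is also known from early germ cells, was at least 32.1-fold higher. The transcription factors that carry the response were higher too: Irf7 was at least 5.43-fold higher, and Irf9 and Stat2 had log2 fold changes of 1.95 and 1.42. In antigen presentation, the class I heavy chain gene H2-D1 lay at 8.86 and 8.75 in piPSC, against 4.68 and 4.57 in OG2-MEF, where it was not well above background. H2-K1 lay at 8.38 and 8.29 in piPSC, against 5.16 and 4.76 in OG2-MEF. Class I genes are near copies of each other and differ between mouse strains, and the labels name no strain for piPSC. Leukocyte markers were measured beside these genes. Of 16 macrophage markers on the array, 9, including Ptprc, Itgam and Tyrobp, were not above background on both arrays of either group. Of the 7 tested, 1 was higher and 4 lower, and 3 passed the filter through OG2-MEF alone. The mean log2 level of those 7 was 6.34 and 6.42 in piPSC, against 6.64 and 6.67 in OG2-MEF, and their part in the interferon genes was not tested. The higher one was Laptm5, a lysosomal membrane protein of blood cells, with 13.43 and 13.63 in piPSC, against 8.26 and 8.45 in OG2-MEF (36.3-fold).

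Promoters of interferon genes are shown because the members moved together. The letters GAAANNGAA, the core of the interferon-stimulated response element, were searched on both strands of the 250 bases before the start. They were present in 12 of 26 higher genes of the list (46.2%) and in 2 of 11 not changed, against 6.11% of 7861 tested genes with a promoter. A match is a description of letters and was not tested as a site. The last 150 bases before the start of 4 genes, chosen after their values were seen, follow 5′ to 3′ in the direction of the gene, from RefSeq on GRCm38.p6, with matches in capitals (the complement TTCNNTTTC where the match is on the other strand, and overlapping matches joined). They lie at chr19:34583379-34583528 (plus strand, Ifit3), chr4:156200819-156200968 (minus, Isg15), chr11:58199406-58199555 (plus, Igtp) and chr8:71537473-71537622 (minus, Bst2).
Ifit3: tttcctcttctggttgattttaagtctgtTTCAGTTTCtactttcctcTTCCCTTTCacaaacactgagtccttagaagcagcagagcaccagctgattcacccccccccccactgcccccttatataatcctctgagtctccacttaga
Isg15: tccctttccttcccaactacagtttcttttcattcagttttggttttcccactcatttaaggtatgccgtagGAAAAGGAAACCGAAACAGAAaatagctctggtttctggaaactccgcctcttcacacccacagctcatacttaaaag
Igtp: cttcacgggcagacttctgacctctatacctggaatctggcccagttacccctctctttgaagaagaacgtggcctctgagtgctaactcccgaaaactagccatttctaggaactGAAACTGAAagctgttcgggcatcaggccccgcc
Bst2: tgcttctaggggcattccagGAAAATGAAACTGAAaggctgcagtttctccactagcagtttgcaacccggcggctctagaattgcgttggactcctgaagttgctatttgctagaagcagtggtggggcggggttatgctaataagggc
The 4 genes hold 1 to 3 matches each. Only higher genes with a match in these bases could be shown, so at least 1 match each follows from the choice. Oasl2, with a larger change, is not among the 4. Igtp, an interferon-induced GTPase, was at least 17.7-fold higher in piPSC, and Bst2, which tethers budding virus, had a log2 fold change of 3.63.

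**Figure D3:**
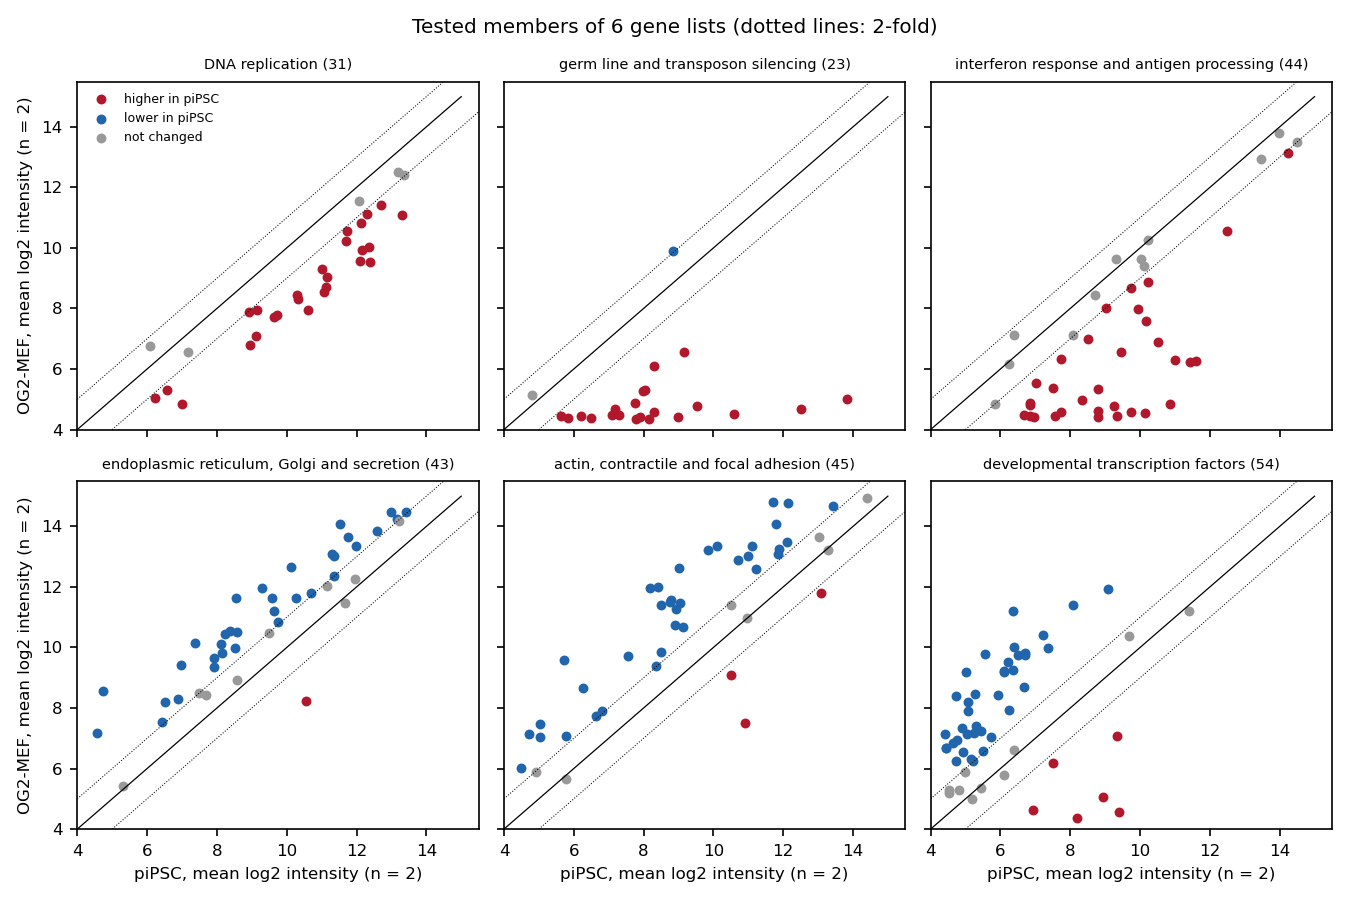
Mean log2 intensity in piPSC (horizontal axis) is plotted against that in OG2-MEF (vertical axis) for the tested members of 6 lists, with 2 arrays per group and dotted lines at 2-fold. Many germ line and interferon genes lie at the floor of OG2-MEF, and most members of the 3 lower lists lie above the diagonal.

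Epithelial genes were mostly higher in piPSC. Of 28 tested, 16 were higher and 3 lower, and 14 were not well above background in OG2-MEF. Those 14 passed the filter through piPSC alone, and 4 others through OG2-MEF alone. Cdh1, the epithelial cadherin, lay at 10.39 and 10.00 in piPSC, against 4.76 and 4.90 in OG2-MEF (at least 33.6-fold). Grhl2 and Elf3, epithelial transcription factors, were at least 22.1-fold and 21.1-fold higher, and the tight junction protein Cldn6 at least 18.8-fold. Esrp1, a splicing regulator of epithelial cells, was at least 10.4-fold higher. The splicing regulators Mbnl1 and Mbnl2 moved the other way, with log2 fold changes of -3.28 and -2.24, although another probe of Mbnl1 gave -0.70. The 3 lower genes were Krt19, a keratin, and the desmosomal genes Jup and Pkp2, and the call of Pkp2 was lost without OG2-MEF replicate 2 (-0.53), as was that of Jup in the authors' deposited values (-0.97). Krt19 lay at 4.52 and 4.46 in piPSC, against 6.77 and 6.80 in OG2-MEF.

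Among genes of biosynthesis, the calls ran mostly 1 way. Nucleotide synthesis had 14 of 29 genes higher and 0 lower. Upp1, the uridine phosphorylase of pyrimidine salvage, lay at 13.60 and 13.67 in piPSC, against 7.21 and 7.32 in OG2-MEF, 82.8-fold higher (adjusted p = 3.1e-10). Dctpp1, which clears dCTP, was 8.41-fold higher. Ribosome biogenesis had 12 of 31 genes higher and 0 lower (7 under median scaling), led by Rrp1b at 2.93 and Tcof1, of ribosomal RNA synthesis, at 2.54. Mitochondrial ribosomal proteins, picked by symbol after values were seen, were higher in 29 of 71 cases and lower in 1, with a median of 0.88. Cytosolic ribosomal proteins were higher in 3 of 55, with a median of 0.25, so their share of calls was below the 21.2% over all genes.

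Energy and carbon metabolism moved in both directions. Glycolysis genes were higher in 7 of 27 cases and lower in 3, near the shares over all genes for gains. Slc2a3, a high-affinity glucose transporter, lay at 13.54 and 13.48 in piPSC, against 8.23 and 8.33 in OG2-MEF (37.6-fold). Aldoc, an aldolase, was at least 19.6-fold higher, and Pdk1, the kinase that restrains pyruvate dehydrogenase, 7.26-fold. Slc2a10, another glucose transporter, fell by 3.67 on the log2 scale. Mitochondrial energy genes were higher in 9 of 41 cases and lower in 0, with a median of 0.38, or 5 and 1 under median scaling. The higher share, 22%, was near the 21.2% over all genes, and the lower share was below the 22.6% over all genes. Cox7a1, a subunit of cytochrome oxidase known from heart and muscle, lay at 11.06 and 11.05 in piPSC, against 5.92 and 5.18 in OG2-MEF (log2 fold change 5.50, SE 0.21). Of the serine, glycine and one-carbon genes, 7 of 19 were higher (36.8%) and 4 lower (21.1%, near the 22.6% over all genes). Gldc, the glycine decarboxylase, lay at 12.91 and 13.03 in piPSC, against 7.39 and 7.57 in OG2-MEF (44.9-fold). Phgdh, the first enzyme of serine synthesis, fell, with 8.56 and 8.24 in piPSC, against 10.95 and 10.71 in OG2-MEF. The folate enzymes Shmt1, of the cytosol, and Aldh1l2, of mitochondria, moved by 3.76 and -3.52.

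Calls among lipid and detoxification genes ran in both directions. Apoe, an apolipoprotein that carries cholesterol, lay at 11.84 and 11.87 in piPSC, against 5.52 and 5.98 in OG2-MEF (68.8-fold). Its neighbour Apoc1 was at least 44.3-fold higher. Over 37 cholesterol and fatty acid genes, 9 were higher (24.3%, near the 21.2% over all genes) and 6 lower, and the median of 0.26 turned to -0.08 under median scaling. Of 45 antioxidant and detoxification genes, 15 were higher (33.3%) and 8 lower (17.8%, below the 22.6% over all genes). All 4 tested alpha-class glutathione transferases rose. Gsta1 and Gsta2 were not well above background in OG2-MEF and were at least 12.3-fold and 10.9-fold higher, and Gsta3, above background on 1 of 2 OG2-MEF arrays, had a log2 fold change of 4.67. Gsta4, which conjugates products of lipid peroxidation, lay at 12.61 and 12.81 in piPSC, against 7.44 and 7.15 in OG2-MEF (42.7-fold). These transferases are close copies, so their probes may share signal. Gpx8, a glutathione peroxidase of the endoplasmic reticulum, and Gsto1 had log2 fold changes of -2.65 and -2.42. Among channels and transporters, 10 of 48 were higher (20.8%, near the 21.2% over all genes) and 15 lower. Aqp3, a water and glycerol channel, lay at 10.96 and 10.74 in piPSC, against 5.00 and 4.97 in OG2-MEF, where it was not well above background. Kcnab1, a potassium channel subunit, was at least 14.8-fold brighter in OG2-MEF.

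Genes of the secretory pathway were mostly lower in piPSC. Of 43 genes of the endoplasmic reticulum, Golgi and secretion, 33 were lower in piPSC and 1 was higher, with a median of -1.46. Plod2, a lysyl hydroxylase that prepares collagen for cross-linking, lay at 8.57 and 8.50 in piPSC, against 11.62 and 11.68 in OG2-MEF (log2 fold change -3.11, SE 0.11). P4ha3, a collagen prolyl hydroxylase, was at least 11.3-fold brighter in OG2-MEF. Creb3l2, a transcription factor of secretory cells, and Kdelr3, a retrieval receptor, had log2 fold changes of -2.76 and -2.69. The exception was Atf4, the transcription factor of the integrated stress response, with 10.60 and 10.51 in piPSC, against 8.31 and 8.17 in OG2-MEF. Collagens, the main cargo of these cells, were lower as well: of 29 tested collagen chains, picked by symbol after values were seen, 19 were lower and 2 higher. Proteases and inhibitors were lower in 18 of 32 cases and higher in 3. Adam12, a membrane metalloprotease, lay at 5.93 and 5.79 in piPSC, against 9.90 and 9.87 in OG2-MEF (log2 fold change -4.02, SE 0.11). The urokinase Plau and its receptor Plaur fell together, by 3.94 and 3.15. Mmp3, a secreted matrix protease, moved the other way, with 11.50 and 11.16 in piPSC, against 7.63 and 7.51 in OG2-MEF, and feeders as a source were not tested. Lysosomal genes were lower in 12 of 43 cases (27.9%) and higher in 2, or 19 and 1 under median scaling. The lower share was not far from the 22.6% over all genes. Ctsh and Ctsc, both cathepsins, had log2 fold changes of -2.56 and 3.32. GTCACGTG, the letters bound by the lysosomal regulator TFEB, was present in 0 of 10 lower lysosomal genes, in 5 of 25 not changed and in 3.41% of all tested genes.

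Adhesion receptors were lower in 32 of 44 cases and higher in 2. Nrp1, a co-receptor of semaphorins and VEGF, lay at 9.56 and 9.44 in piPSC, against 13.74 and 13.78 in OG2-MEF (log2 fold change -4.26, SE 0.11). Itgav, the integrin chain of vitronectin receptors, lay at 6.37 and 6.48 in piPSC, against 10.77 and 10.51 in OG2-MEF. Itga11, a collagen receptor chain, and the fibronectin receptor chain Itga5 had log2 fold changes of -3.09 and -2.88. Icam1, a ligand of leukocyte integrins, was 1 of the 2 genes that rose, with 11.09 and 11.04 in piPSC, against 7.48 and 7.28 in OG2-MEF. The other was Itgb7, at least 3.10-fold higher.

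Actin, contractile and focal adhesion genes were lower in 35 of 45 cases and higher in 3, with a median of -1.82. Mylk, the kinase that activates myosin II, lay at 5.57 and 5.88 in piPSC, against 9.67 and 9.48 in OG2-MEF (log2 fold change -3.85, SE 0.14). Tpm1, a tropomyosin that stabilises actin filaments, lay at 11.72 and 11.69 in piPSC, against 14.76 and 14.86 in OG2-MEF (8.63-fold brighter in OG2-MEF). The LIM proteins Fhl2 and Fhl1 fell by 3.77 and 3.59. Csrp1, also a LIM protein, was an exception and lay at 10.96 and 10.86 in piPSC, against 7.38 and 7.60 in OG2-MEF. Of 16 tested striated muscle markers, 11 were lower in piPSC and 1 was higher, while 22.6% of all genes were lower. Their mean log2 level was 6.17 and 6.20 in piPSC, against 8.44 and 8.52 in OG2-MEF. Of the 16, 6 were read from probes that passed the filter through OG2-MEF alone, which favours a lower call. Myl1, a fast-muscle myosin light chain, was at least 73.0-fold brighter in OG2-MEF, although its other probe gave -1.14. Whether muscle cells among the fibroblasts added to the actin list was not tested.

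Promoters of lower actin genes are shown because these members fell together. The letters GGAATG, the core bound by TEAD factors, were searched on both strands of the 250 bases before the start. They were present in 14 of 32 lower genes (43.8%) and in 0 of 6 not changed, against 10.5% of tested genes. The 150 bases before the start of 4 genes, again chosen after their values were seen, follow from RefSeq on GRCm38.p6 with matches in capitals (CATTCC on the other strand). They lie at chr9:67049214-67049363 (minus strand, Tpm1), chr11:68691765-68691914 (plus, Myh10), chr19:36119845-36119994 (minus, Ankrd1) and chr1:135324663-135324812 (plus, Lmod1).
Tpm1: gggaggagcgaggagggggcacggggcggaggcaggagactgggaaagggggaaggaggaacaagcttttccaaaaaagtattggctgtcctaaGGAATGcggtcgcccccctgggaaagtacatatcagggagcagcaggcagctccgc
Myh10: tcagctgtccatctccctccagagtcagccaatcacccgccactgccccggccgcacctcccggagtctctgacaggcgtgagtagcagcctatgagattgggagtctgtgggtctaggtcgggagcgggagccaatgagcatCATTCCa
Ankrd1: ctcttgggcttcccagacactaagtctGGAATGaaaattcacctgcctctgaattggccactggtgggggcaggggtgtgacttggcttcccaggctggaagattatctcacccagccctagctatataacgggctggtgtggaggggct
Lmod1: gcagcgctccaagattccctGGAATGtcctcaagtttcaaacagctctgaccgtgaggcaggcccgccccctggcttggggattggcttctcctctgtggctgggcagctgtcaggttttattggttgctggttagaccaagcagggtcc
Myh10, a non-muscle myosin heavy chain, Ankrd1, an ankyrin-repeat protein of stretched muscle, and Lmod1, a smooth muscle actin nucleator, had log2 levels in piPSC of 8.23 and 8.75, 8.82 and 8.75, and 4.77 and 4.66. In OG2-MEF the levels were 11.53 and 11.29, 11.59 and 11.57, and 7.16 and 7.15, in the same order. Only lower genes with a match in these bases could be shown, so the matches and the lower levels in piPSC follow from the choice. Mylk, Fhl2 and Fhl1, with larger changes, are not among the 4.

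Growth factor receptors and binding proteins were mostly lower in piPSC. Of 51 receptor tyrosine kinase, FGF and IGF genes, 30 were lower and 6 higher. Igfbp5, a secreted binding protein of insulin-like growth factors, lay at 6.37 and 6.54 in piPSC, against 12.70 and 12.68 in OG2-MEF (75.4-fold brighter in OG2-MEF). Egfr, the epidermal growth factor receptor, lay at 7.76 and 7.69 in piPSC, against 12.17 and 12.02 in OG2-MEF. Igf1r fell by 3.48 on the log2 scale. Fgf17, an FGF ligand, was at least 42.7-fold higher in piPSC, and Etv5, a transcription factor induced by FGF signalling, 8.67-fold. In the TGF-beta, BMP and Nodal list, 24 of 42 were lower and 5 higher. Nodal and Gdf3, ligands of the Nodal branch, lay at 10.13 and 10.01, and at 11.62 and 11.72, in piPSC, and neither was well above background in OG2-MEF, so they were at least 30.8-fold and 93.5-fold higher. Tgfb3, a TGF-beta ligand, lay at 6.64 and 6.54 in piPSC, against 10.90 and 10.97 in OG2-MEF. Ltbp1, which stores latent TGF-beta in the matrix, and the activin antagonist Fst fell by 4.59 and 4.39. Some genes of this list, Gdf3 and Tdgf1 among them, are also pluripotency markers.

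WNT pathway genes were lower in 15 of 31 cases and higher in 5 (2 under median scaling). Wnt5a, a noncanonical ligand, lay at 8.57 and 8.48 in piPSC, against 12.58 and 12.32 in OG2-MEF (log2 fold change -3.93, SE 0.12). The receptors Fzd2 and Fzd1 were lower, Fzd1 at least 4.87-fold brighter in OG2-MEF. Sp5, a direct target of beta-catenin signalling, was not well above background in OG2-MEF and at least 8.48-fold higher in piPSC.

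Secreted immune signals moved in both directions. Of 44 cytokine and chemokine genes, 13 were higher (29.5%) and 17 lower (38.6%), against 21.2% and 22.6% over all genes. Saa3, an acute phase protein, lay at 13.43 and 13.30 in piPSC, against 5.02 and 4.71 in OG2-MEF (at least 303-fold). Cxcl1 and Cxcl5, chemokines that attract neutrophils, lay at 12.71 and 12.49, and at 10.67 and 9.87, in piPSC, and Cxcl1 at 5.90 and 6.40 in OG2-MEF. Cxcl5 was not well above background in OG2-MEF and was at least 35.5-fold higher in piPSC. Cxcl12, which guides cells that carry Cxcr4, lay at 8.07 and 8.03 in piPSC, against 13.46 and 13.63 in OG2-MEF (45.2-fold brighter in OG2-MEF). Il11, a cytokine of the interleukin-6 family, lay at 6.97 and 7.12 in piPSC, against 12.73 and 12.51 in OG2-MEF. Tnfrsf11b, the decoy receptor osteoprotegerin, fell by 5.39. Saa3, Cxcl1, Cxcl5, Lcn2 and Mmp3 are known products of inflamed fibroblasts and epithelia, and the source of their signal in the piPSC arrays was not tested.

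Developmental transcription factors had the lowest median of the function lists, -2.10 (-1.83 at bounds), with 38 of 54 lower and 6 higher. Of the 54, 12 passed the filter through OG2-MEF alone and 3 through piPSC alone. Hoxa5, which specifies position along the trunk, lay at 6.36 and 6.38 in piPSC, against 11.10 and 11.32 in OG2-MEF (28.8-fold brighter in OG2-MEF). Of all 22 tested Hox genes, 17 were lower and 1 was higher, Hoxc13 at 1.30 (0.79 in the authors' deposited values, under 2-fold). Foxc1, a forkhead factor of mesenchyme, lay at 5.46 and 5.65 in piPSC, against 9.79 and 9.82 in OG2-MEF. Dlx2 and Hoxb6 were not well above background in piPSC, and were at least 10.0-fold and 17.3-fold brighter in OG2-MEF. The higher genes are known from early embryos and epiblast. Otx2 lay at 9.41 and 9.38 in piPSC, against 4.59 and 4.56 in OG2-MEF (at least 19.3-fold). Zic2 rose by 3.89, Sox15 was at least 8.34-fold higher and Pou3f1 at least 3.50-fold.

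Imprinted genes, normally expressed from 1 parental copy, were lower in 12 of 24 cases (50%) and higher in 6 (25%). The higher share was near the 21.2% over all genes, and 22.6% of all genes were lower. Dlk1, a Notch-related ligand of the Dlk1-Dio3 cluster, lay at 6.39 and 6.22 in piPSC, against 12.73 and 12.41 in OG2-MEF (76.8-fold brighter in OG2-MEF). Dio3, the deiodinase at the other end of that cluster, moved the other way, with 8.24 and 8.17 in piPSC, against 5.45 and 5.47 in OG2-MEF. Grb10, Igf2r and Igf2, regulators of growth, fell by 3.39, 2.85 and 2.43. Phlda2 and Snrpn rose by 3.24 and 2.75. Of the 4 tested sex-linked genes, 3 were lower in piPSC. Xist, the RNA that silences an X chromosome, lay at 5.16 and 5.07 in piPSC, against 9.37 and 9.36 in OG2-MEF. The Y-linked gene Eif2s3y lay at 6.29 and 6.28 in piPSC, against 8.38 and 8.42 in OG2-MEF, so Xist and a Y-linked transcript were both above background in OG2-MEF. Kdm5d, a Y-linked histone demethylase, was not well above background in piPSC and at least 1.74-fold brighter in OG2-MEF, and its call was lost in the authors' deposited values and without OG2-MEF replicate 1. Uty, also Y-linked, had a log2 fold change of -0.04 (95% interval -0.29 to 0.21).

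Apoptosis and stress lists had nearly equal gains and losses. Of 27 apoptosis genes, 8 were higher (29.6%) and 6 lower (22.2%, near the 22.6% over all genes), with a median of -0.01. Of the 27, 3 passed the filter through piPSC alone and 1 through OG2-MEF alone. Casp9, the initiator caspase of the mitochondrial route, was at least 8.88-fold higher, while Casp8, of the death receptor route, lay at 7.80 on both piPSC arrays, against 10.16 and 9.97 in OG2-MEF. Of 31 immediate early and stress genes, 8 were higher (25.8%) and 7 lower (22.6%), near the 21.2% and 22.6% over all genes. The AP-1 genes Fos and Fosl1 had log2 fold changes of 2.15 and -2.51.

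Markers of other lineages were also compared. Col2a1, the collagen of cartilage, lay at 6.54 and 6.69 in piPSC, against 13.81 and 13.64 in OG2-MEF (138-fold brighter in OG2-MEF, adjusted p = 2.6e-10). Other cartilage and bone markers went the other way: Alpl and Col9a2 rose by 5.23 and 2.07, and Matn1 was at least 1.76-fold higher in piPSC. The median of that list was -0.01. Nes and Ncam1, found in neural and muscle progenitors, fell by 4.14 and 4.66, while the neural marker Stmn2 rose by 1.33. Emcn, an endothelial sialomucin, was at least 18.8-fold brighter in OG2-MEF. Pecam1, an endothelial marker that mouse pluripotent cells also express, was at least 15.3-fold higher in piPSC. The endothelial markers Tek and Vwf were at least 4.75-fold and 2.82-fold higher in piPSC. Of 9 tested neural markers, 1 was higher and 5 lower, of 9 endothelial markers 5 and 2, of 11 cartilage and bone markers 3 and 5, of 14 endoderm markers 4 and 8, and of 9 trophoblast markers 5 and 2. In the same order, 0, 4, 1, 1 and 3 of these markers passed the filter through piPSC alone, and 1, 1, 4, 1 and 1 through OG2-MEF alone. The endothelial markers Cdh5, Kdr and Tie1 were not above background on both arrays of either group.

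Related genes with exchangeable roles were set side by side in 36 pairs, of which 20 had both genes tested. In 5 pairs the genes changed in opposite directions, in 11 only 1 changed, in 2 both changed the same way and in 2 neither passed. With 43.8% of all genes changed (21.2% higher, 22.6% lower), pairs with 1 change are common among unrelated genes too. The pairs were also chosen with earlier results known. The epithelial cadherin Cdh1 rose at least 33.6-fold, as above, and the mesenchymal cadherin Cdh2 fell by 2.88 on the log2 scale. Lmnb1, a B-type lamin, rose by 1.91 and Lmna fell by 2.60. Ezr and Msn, which anchor actin to the membrane, moved by 1.43 and -3.57. Of the fatty acid-binding proteins, Fabp3 rose by 3.47, and Fabp5, not well above background in piPSC, was at least 2.04-fold brighter in OG2-MEF. The TCF transcription factors Tcf7l1 and Tcf7l2 moved by 1.16 and -2.23, with 0.77 for another probe of Tcf7l1. The calls of Fabp5 in the authors' deposited values and of Tcf7l1 under median scaling (0.83) or without piPSC replicate 2 (0.99) fell under 2-fold. Among pairs with 1 change, Slc2a3 rose by 5.23 beside 0.37 for the glucose transporter Slc2a1. Smarca2, an ATPase of the BAF remodeller, had -1.20 (0.20 for its other probe) beside -0.23 for Smarca4. The members of a pair were not tested against each other.

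**Figure D4:**
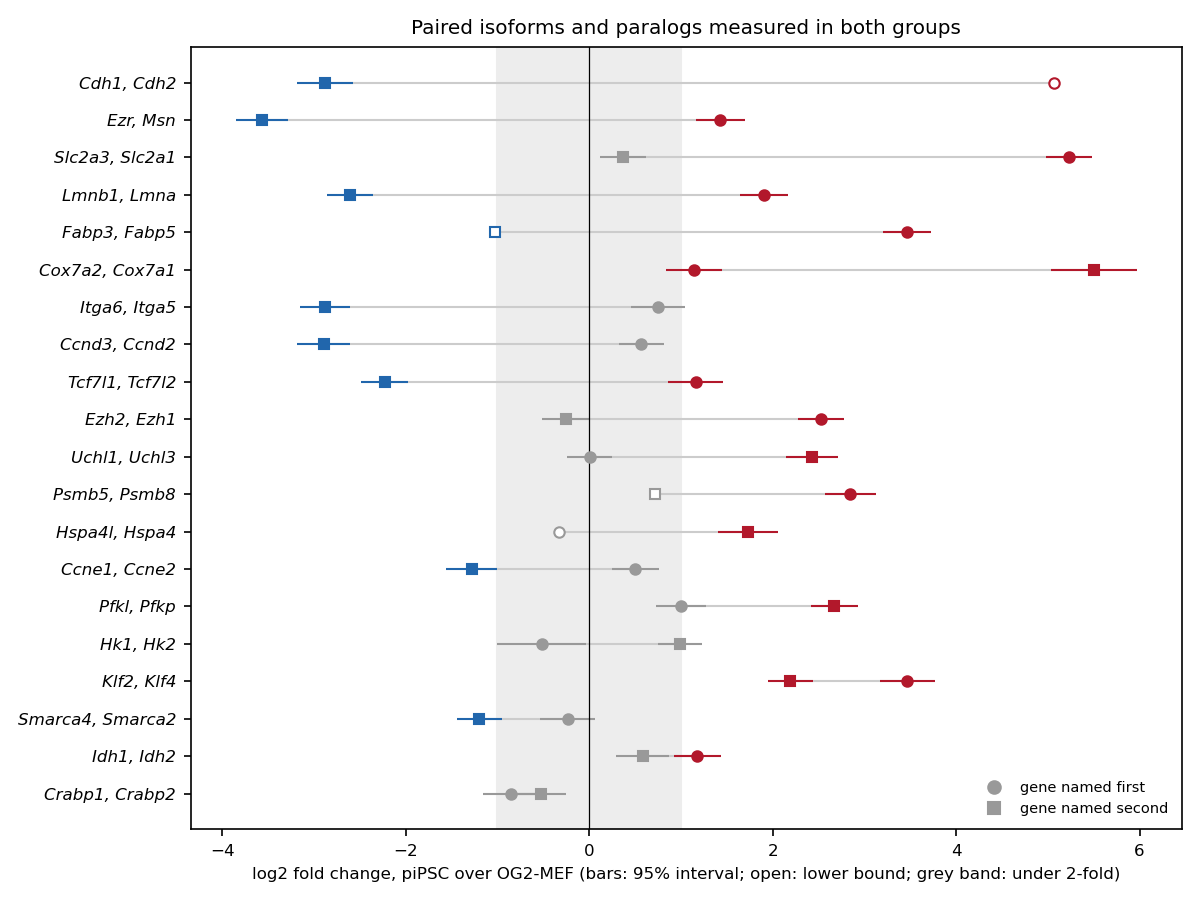
Log2 fold changes of piPSC over OG2-MEF are drawn for the 20 pairs with both genes tested, the first gene of a label as a circle and the second as a square, with 95% intervals, or as open symbols at the lower bound where the dimmer group was not well above background; red is higher, blue lower and grey not changed, and the grey band marks less than 2-fold. Cdh1, at its bound of 33.6-fold, and Cdh2, at -2.88, stand farthest apart.

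Gains were not even along the genome. On chromosome 14, 112 of 333 tested genes were higher (33.6%) and 57 lower (17.1%), with a median log2 fold change of 0.36. On chromosome 17, 123 of 480 were higher (25.6%) and 74 lower (15.4%). On chromosome 18, 34 of 223 were higher (15.2%) and 60 lower (26.9%), with a median of -0.22. Over all genes the shares were 21.2% and 22.6%. Chromosome 14 kept the highest median under median scaling, 0.18, against -0.21 over all genes. These shares are descriptions, and genes of a chromosome are not independent.

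**Figure D5:**
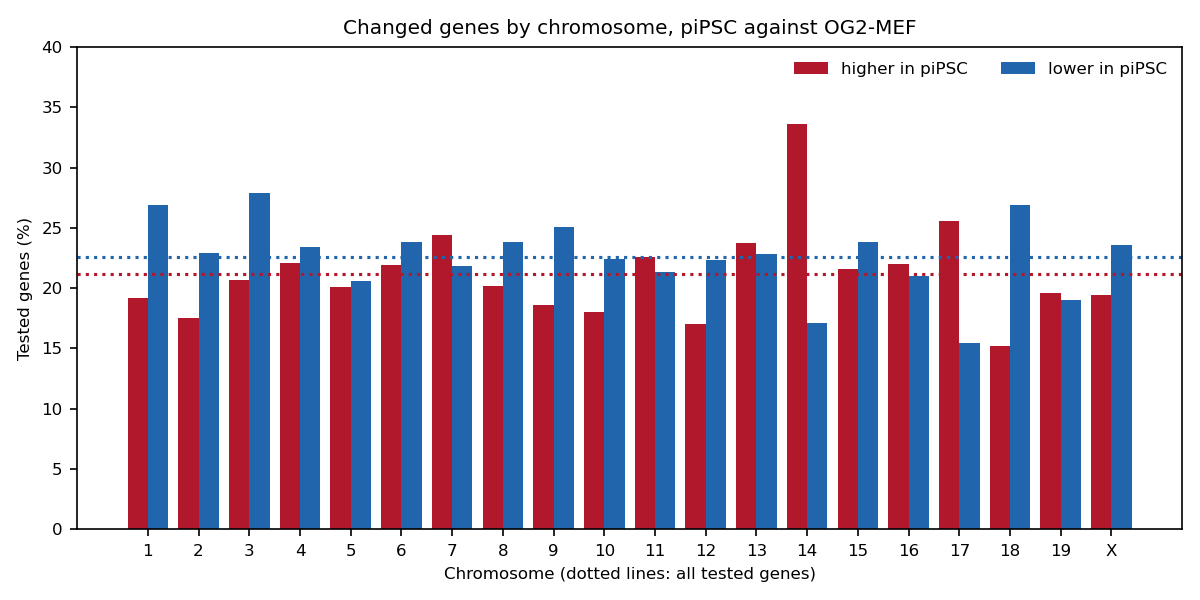
The percentage of tested genes higher (red) and lower (blue) in piPSC than in OG2-MEF is drawn for each chromosome, with dotted lines at 21.2% and 22.6% over all genes. Chromosome 14 stands out with 33.6% higher.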

How the data were processed

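Expression was measured on 1-colour Illumina mouse bead arrays with 500 ng of total RNA per sample, 2 arrays per group. The authors deposited a table of raw probe intensities on a linear scale with a detection p-value beside each, per the file headers, and a matrix of log2 values. That deposited log2 matrix equals the quantile-normalized log2 intensities without background correction within 0.0012. Scanner software and genome build are not given in the sources used here.

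From the intensities of the 4 arrays of piPSC and OG2-MEF, normexp background correction by detection p, an offset of 16, quantile normalization and log2 were applied (neqc, limma 3.58.1, R 4.3.3). Probes were kept at a detection p under 0.05 on both arrays of either group, which left 14229, of which 13408 had a gene symbol. Symbols were updated through the Entrez identifier for 23962 of 25697 probes, the accession for 9 and the array table for 7, and 1719 had none. Each gene was read from its brightest probe by mean, giving 9700 genes. No column of the deposited table was left out of the mapping to samples.

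Differences were tested with limma (lmFit and eBayes) (residual df 2, prior df 6.85), and p-values were adjusted over all genes by Benjamini-Hochberg. SE is the moderated standard error. A fold against a group not above background (detection p under 0.05) is a lower bound. The limma fit and the calls were tested on simulated log2 values with independent normal noise. Background correction, normalization, filter and probe choice were not part of that simulation. The ES arrays were kept out because they differed more from each other (SD of the difference 0.579). Gene lists (34 function, 9 marker), pairs and the comparison were chosen with earlier results of these data known, so lists carry counts and medians and no test. Named were the 12 largest changes each way outside marker lists, up to 4 changed genes each way of a function list, up to 3 of a marker list, pairs and sex-linked genes, and any other gene named was chosen after its values were seen. Promoters came from RefSeq for 7861 tested genes by symbol. Alternatives covered the authors' matrix, background, scaling, filter, probe choice, threshold, trend, the 6 arrays, a replicate block and leaving out each array.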

Additional observations from a re-analysis of the deposited data

Results flagged for a closer look

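Probes that no gene table names were outside the comparison, and they showed signal. Of 1719 probes without a symbol, 821 passed the filter, 168 were higher and 183 lower in piPSC (42.8% changed), and 68 were above background on both piPSC arrays and on neither OG2-MEF array. The reverse held for 63. No gene is assigned to them here, and no explanation was tested.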

How the results depend on the processing

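Groups of 2 arrays limit the precision, and values near background have no order. The number of changed genes, 4246, was within 1.5 times under every alternative except a 4-fold threshold, which left 1539, 748 higher and 791 lower. Leaving out 1 array gave 4198 to 4308 changed, 2011 to 2085 higher and 2173 to 2227 lower. Replicate numbers are only names here: deviations of same-numbered arrays correlated at 0.06, and the replicate block gave 4246 changed genes. Median scaling moved the median of all genes by -0.21. With it, the medians of the cholesterol and fatty acid list and of the stress list turned to -0.08 and -0.22. The near-zero medians of the apoptosis, stress and cartilage lists also changed sign elsewhere, within -0.17 to 0.14. The authors' matrix, no background correction and an offset of 50 gave 3473, 3568 and 3334 changed genes, and the folds of 77 of 187 named genes were more than 1.5 times smaller in the authors' matrix. Named genes that lost their call in the authors' matrix were Fabp5, Jup, Hoxc13 and Kdm5d. Taking the median over probes moved Smarca2 to -0.50 and Pkp2 to -0.77. With all 6 arrays, C1qtnf3 was at -4.04 and Igf2r at -2.14. Testing against 2-fold (treat) left 3071 changed. Of 187 changed genes named in the text, 181 to 187 kept their call under each alternative other than the 4-fold threshold (167), and none reversed. Uty, near 0 and not changed, turned to 0.0313 under cyclic loess and lay between -0.104 and 0.0238 when 1 array was left out (0.0238 without OG2-MEF replicate 2). Causes were not tested.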

Other observations

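Beyond the lists, genes grouped by the first letters of their symbol gave further descriptions, chosen after values were seen. Of 37 DEAD-box and DEAH-box helicases, which unwind RNA, 12 were higher in piPSC and 1 lower, with a median log2 fold change of 0.62. Of 38 proteasome subunits, 6 were higher and 1 lower, and of 32 subunits of respiratory complex I, 6 were higher, shares below the 21.2% over all genes. Annexins, which bind membranes in the presence of calcium, were lower in 6 of 8 cases and higher in 1. Of 14 semaphorins, 6 were lower and 2 higher, and of 12 S100 calcium-binding proteins, 4 and 2. All genes whose symbols start with Slc, the solute carriers, were higher in 30 of 198 cases and lower in 54, and those starting with Zfp, zinc finger proteins, in 37 and 39 of 199. The Zfp shares were 18.6% and 19.6%, near the 21.2% and 22.6% over all genes, and the Slc shares 15.2% and 27.3%.

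When the 2 ES arrays of the series were normalized together with the other 4, chromosomes 13 and 14 stood apart in the difference between piPSC and ES. The median log2 difference between piPSC and ES was 0.15 over genes of chromosome 13 and 0.13 over those of chromosome 14, against -0.22 to -0.13 on the other 18 chromosomes (1 to 19 and X). On chromosome 13, 64.8% of genes were higher in piPSC than in ES, and on chromosome 14, 61%, against 31.4% to 38.1% elsewhere. Each piPSC array set against each ES array gave the same order: the medians were 0.21 and 0.21, 0.22 and 0.20, 0.09 and 0.07, and 0.10 and 0.08 for chromosomes 13 and 14, and below 0 on each other chromosome. For piPSC against OG2-MEF in the same normalization, chromosome 14 was at 0.34 and chromosome 13 at 0.09, with -0.21 to 0.19 on the others. For ES against OG2-MEF, chromosome 14 was at 0.12 and chromosome 13 at -0.10, with -0.03 to 0.33 on the others. Against OG2-MEF, chromosome 14 thus lay outside the range of the others in piPSC, and chromosome 13 in ES. The pairs share arrays, genes of a chromosome are not independent, and no cause was tested.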
